A study of Mus musculus with 8 samples.

Results

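Doxorubicin, given for 12 h to wild type mouse embryonic fibroblasts, was followed on bead arrays across every gene whose probe rose above background. The comparison used the 4 arrays titled as wild type, out of 8 arrays in the series. They were 2 of treated cells (WT Dox+) and 2 of untreated cells (WT Dox-). The brightest probe stood for each gene. This gave 9340 entries, of which 8625 carried a gene name and 715 were unnamed probes. Both groups were primary fibroblasts of the C57BL/6J background, with a wild type genotype and no transgene named, grown in DMEM with glutamine and fetal bovine serum. The WT Dox- cells are described in the labels as taken before treatment, so the drug and the 12 h spent in culture cannot be told apart. The other 4 arrays were staggerer fibroblasts (Sg Dox+ and Sg Dox-, 2 arrays each), which carry a deletion within Rora, the gene of a nuclear receptor, on the same background. The drug concentration is not given in the sources used here. Nor do the labels say how many embryos or cultures stand behind a group, so p-values reflect the variation among arrays alone, possibly a technical one.

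Doxorubicin is an anthracycline that slides between the bases of DNA and traps topoisomerase II on the strands it has opened, which leaves double-strand breaks. Breaks activate the kinases ATM and ATR and, through them, p53, a transcription factor whose targets halt the cell cycle, aid repair, or start apoptosis. p53 also turns on its own inhibitors, among them Mdm2, so its output is known to pulse. In dividing fibroblasts the arrest is known to silence replication and mitosis genes through the p21, RB and DREAM pathway. Anthracyclines are also known to evict histones from chromatin, to block RNA polymerase, and, hours later, to start interferon signalling.

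The cells carried the markers of fibroblasts. All 14 tested genes of a 16-gene fibroblast list were above background in both groups or in one, and Col1a1, Vim and Thy1 stood at 13.21, 14.37 and 13.99 log2 units on average in WT Dox+ cells. Of markers of other cell types, the skeletal muscle list had 6 of its 7 genes on the array and 0 above background. The endothelial genes Pecam1, Cdh5 and Kdr, the epithelial gene Cdh1 and the neural genes Sox2 and Tubb3 were likewise not above background. Other members of these lists were tested, namely 5 of 10 epithelial, 3 of 8 neural and 2 of 8 endothelial genes, Krt19 and Nes among them. So were 3 of 4 mesothelial genes, and these lists are described below. Among 13 macrophage markers 8 were tested, and Lyz2, a lysozyme, stood at 11.88 and 12.04 in WT Dox+ cells, against 12.01 and 11.97 in WT Dox- cells. Adgre1, Cd14, Fcer1g, Laptm5 and C1qa were also among the 8 tested, and a second Adgre1 probe was above background on all 4 arrays. Ptprc and Itgam, which mark all leukocytes and myeloid cells, were not above background.

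The response covered most of the genes measured. All levels and differences below are on the log2 scale, each difference is WT Dox+ minus WT Dox- with its standard error from limma, and n is 2 arrays in each group. At a Benjamini-Hochberg adjusted p under 0.05, 5314 of the 9340 genes changed, which is 56.9% of those tested. Of these, 2467 rose (26.4%) and 2847 fell (30.5%). The arrays agreed closely within a group, with a correlation across genes of 0.9937 in WT Dox+ cells and 0.9946 in WT Dox- cells, so that small differences passed. The arrays of the 2 groups did not overlap at 81.5% of genes, with WT Dox+ higher at 37.1% and lower at 44.4%, so a lack of overlap alone is common here. Restricted to changes of at least 2-fold, 1280 genes rose (13.7%) and 1129 fell (12.1%). By fitted differences after quantile normalization, 416 genes rose at least 4-fold and 102 fell at least 4-fold. Levels near background enter these counts, as 479 of the genes that rose were not above background in WT Dox- cells. The same held for 266 of the genes that fell, in WT Dox+ cells. The number of probes above background was 11456.5 ± 163 in WT Dox+ cells and 11106.5 ± 67.2 in WT Dox- cells (SD, n = 2).

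The balance of rises and falls rested on the normalization. The median difference over all genes was -0.09 with quantile normalization. It was -0.24 with arrays centred on their medians and -0.35 with no normalization between arrays. The share of called genes that rose was 46.4% in the first case, 36.9% in the second and 30.5% in the third. Directions are therefore given relative to the bulk of the genes, and a list's median is named as changing sign where it did so over these scalings and no background correction. With so many genes called, the count for a gene list is to be read against 26.4% rising and 30.5% falling among all genes.

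**Figure D1:**
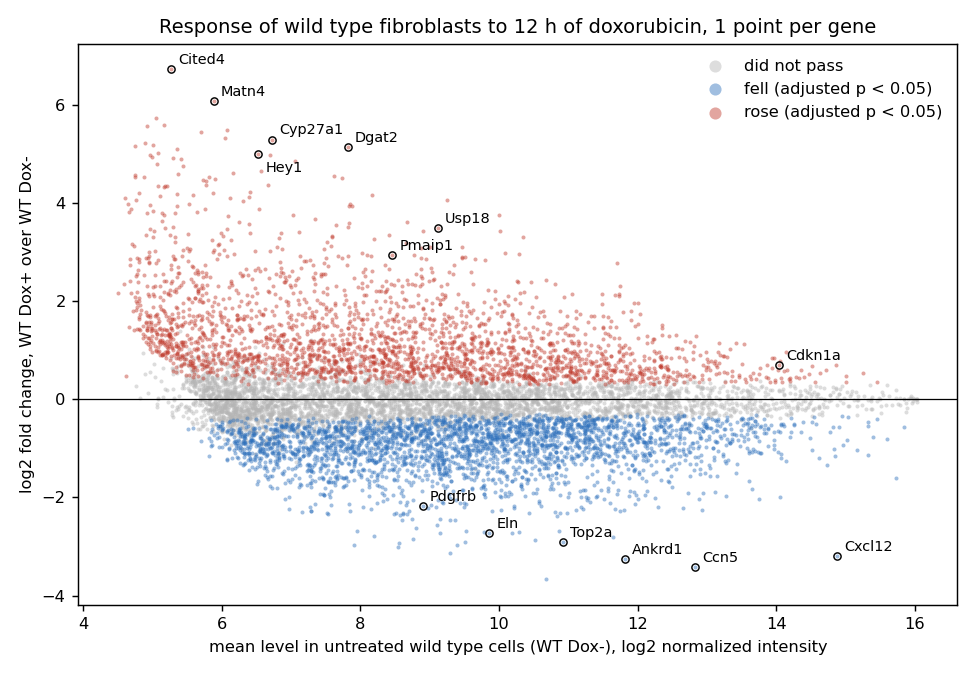
Difference of each of the 9340 genes after doxorubicin (vertical axis, WT Dox+ minus WT Dox-, log2 units) against its mean level in WT Dox- cells (horizontal axis, log2 intensity). Each point is 1 gene, red where it rose, blue where it fell and grey where it did not pass an adjusted p under 0.05 in limma. The points at the top come from genes with a low level in WT Dox- cells, and the lowest named gene is Ccn5 at -3.42.

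The p53 targets of arrest, repair and feedback moved up as a group. Of 27 tested, 17 rose and 0 fell, with a median difference of 0.60, against -0.09 over all genes. Ppm1d had the largest rise of the list. It encodes WIP1, the phosphatase that switches off ATM and p53 again, and was at 11.32 and 11.39 on the WT Dox+ arrays, against 9.22 and 9.22 on the WT Dox- arrays. It rose by 2.14 ± 0.15 (limma adjusted p = 2.64e-05), with a gap between the groups far wider than within them. Mdm2, the ubiquitin ligase that marks p53 for destruction, was at 13.93 and 13.99 on the WT Dox+ arrays, against 12.91 and 13.07 on the WT Dox- arrays. Its rise was smaller, 0.97 ± 0.14 (adjusted p = 0.000783). Ccng1, encoding cyclin G1, which recruits a phosphatase to MDM2, was at 14.77 and 14.47 on the WT Dox+ arrays, against 14.03 and 14.01 on the WT Dox- arrays. The groups did not overlap on either gene. Ccng1 rose by 0.60 ± 0.14 (adjusted p = 0.00813), and lost its call without WT Dox+ replicate 1, at 0.45 (adjusted p = 0.0568), and with no normalization between arrays, at 0.34.

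Cdkn1a, which encodes the kinase inhibitor p21 that carries out the arrest, was already among the brightest genes without the drug. It was at 14.59 and 14.87 on the WT Dox+ arrays, against 14.08 and 14.00 on the WT Dox- arrays, a rise of 0.69 ± 0.13 (adjusted p = 0.00306). The rise lost its call with no normalization between arrays, at 0.42 (adjusted p = 0.0655). Plk3, a stress-activated polo kinase, rose by 1.28 ± 0.17 and Gtse1, which keeps p53 out of the nucleus in late cell cycle, by 0.81 ± 0.18. Of the repair genes that p53 controls, Rrm2b, the ribonucleotide reductase subunit used outside S phase, rose by 1.37 ± 0.14. The excision repair genes Ercc5, Xpc and Ddb2 rose by 1.34 ± 0.15, 0.73 ± 0.17 and 0.49 ± 0.15. Trp53inp1, which helps p53 towards its death targets, rose by 1.12 ± 0.13, and the sestrin gene Sesn1, an inhibitor of mTORC1, by 0.61 ± 0.19. Pltp, a phospholipid transfer protein, and Epha2, an ephrin receptor, both known p53 targets, rose by 1.73 ± 0.15 and 1.70 ± 0.17. Ei24, Ephx1 and Eda2r also rose, by 0.95 ± 0.13, 0.51 ± 0.11 and 0.56 ± 0.15.

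The other targets tested did not pass at their brightest probe at 12 h, with differences from -0.47 to 0.52. Zmat3, an RNA-binding protein, differed by 0.02 ± 0.14, Aen, a nuclease of apoptosis, by 0.07 ± 0.20, Plk2 by 0.03 ± 0.17 and Gadd45a, a growth arrest gene, by -0.07 ± 0.14. None of these passed, and neither did Phlda3 (-0.17), an inhibitor of AKT, Polk (0.21), a damage-tolerant polymerase, Ddit4 (0.16) or Psrc1 (0.52). Sesn2 (0.50) and Rchy1 (-0.47), a further ubiquitin ligase for p53, did not pass either. A second Rchy1 probe, above background on 3 of the 4 arrays, rose by 0.62, and a second Sesn2 probe rose by 0.76. All 10 were above background on all 4 arrays, and Zmat3 stood at 11.59 and 11.79 on the WT Dox+ arrays, against 11.75 and 11.60 on the WT Dox- arrays. The p53 response at 12 h was thus unequal between its targets, with differences running from -0.47 to 2.14.

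The death genes among the p53 targets split the same way. Of 11 tested, 6 rose and 0 fell, at a median of 0.58. Pmaip1 encodes NOXA, a BH3-only protein that frees the killer proteins of the Bcl2 family by binding MCL1. It was at 11.39 and 11.41 on the WT Dox+ arrays, against 8.38 and 8.54 on the WT Dox- arrays, the largest rise of either p53 list, 2.94 ± 0.14 (adjusted p = 6.97e-06). Fas, the receptor through which neighbouring cells can trigger death, was at 12.07 and 12.04 on the WT Dox+ arrays, against 9.94 and 10.24 on the WT Dox- arrays. It rose by 1.96 ± 0.14 (adjusted p = 3.21e-05), and again no treated array came near an untreated one. Pidd1, scaffold of the complex that activates caspase 2, rose by 1.36 ± 0.13, Dram1, a lysosomal protein of autophagy, by 1.05 ± 0.11, Siva1 by 0.90 ± 0.12 and Apaf1, core of the apoptosome, by 0.58 ± 0.14. Bbc3, which encodes PUMA, was at 10.33 and 10.49 on the WT Dox+ arrays, against 10.35 and 10.43 on the WT Dox- arrays. The arrays of the 2 groups overlapped on Bbc3, which differed by 0.03 ± 0.19 (adjusted p = 0.922). Casp6 (0.35), Bid (0.05), the death receptor gene Tnfrsf10b (0.02) and Triap1, a survival factor, did not pass.

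**Figure D2:**
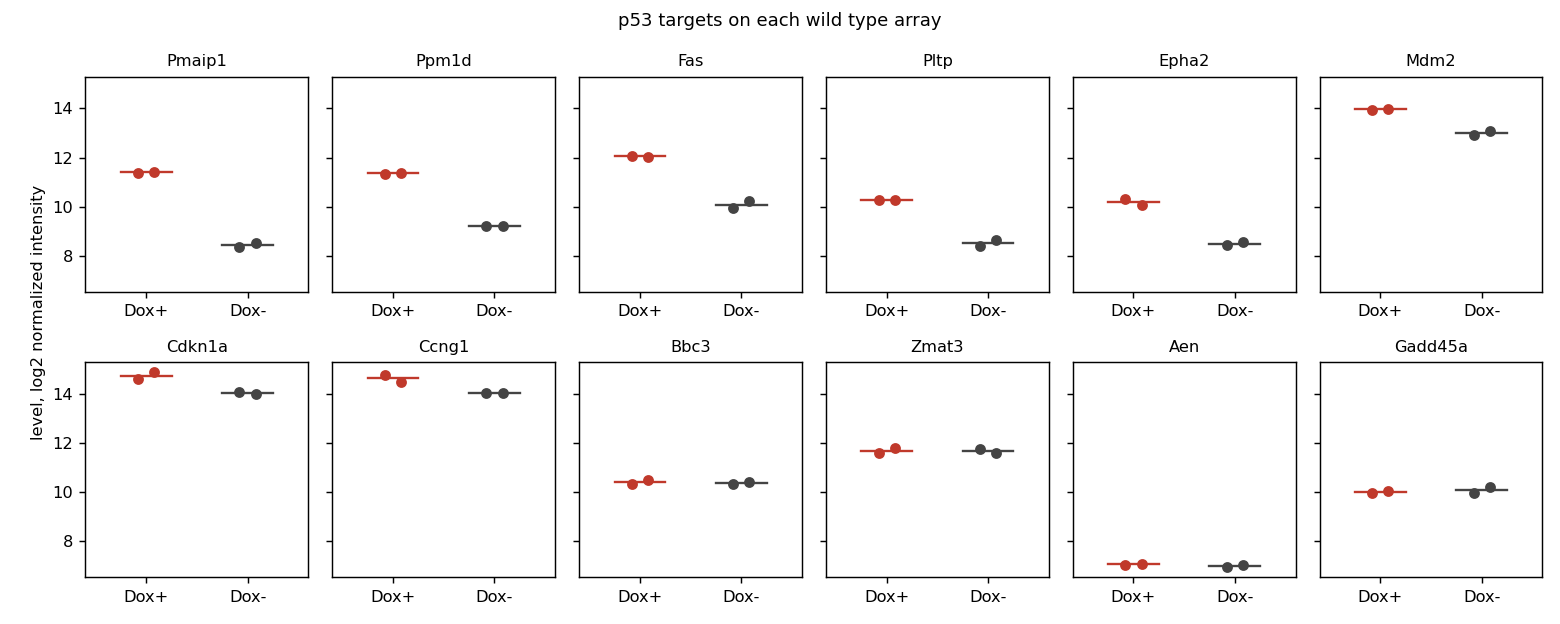
Level of 12 p53 target genes on each array (vertical axis, log2 normalized intensity), 1 panel per gene, with the 2 WT Dox+ arrays in red left of the 2 WT Dox- arrays in grey and lines at the group means. Pmaip1, Ppm1d, Fas, Pltp and Epha2 stand apart by 1.70 or more, while the means of Bbc3, Zmat3, Aen and Gadd45a differ by 0.07 at most in size.

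The wider Bcl2 and caspase family showed changes in both directions. Of 17 genes, 7 rose and 3 fell, and the median changed sign over the scalings. Bcl2l11 encodes BIM, a BH3-only protein that binds all guardians of the family, and was at 10.59 and 10.37 on the WT Dox+ arrays, against 8.23 and 8.30 on the WT Dox- arrays. Its rise of 2.21 ± 0.17 (adjusted p = 3.97e-05) was the largest of the list. The inflammatory caspase genes Casp1 and Casp4 rose by 1.43 ± 0.14 and 0.79 ± 0.14, and the BH3-only gene Bad by 0.82 ± 0.15. Cycs, cytochrome c, rose by 0.91 ± 0.17, Bnip3l, a mitophagy receptor, by 0.55 ± 0.15 and Bok by 0.51 ± 0.16, although a second Bok probe fell by 0.44. Casp2 fell by 1.42 ± 0.14, Casp8 fell by 0.63 ± 0.14 and Bcl2, the founding survival gene, fell by 1.13 ± 0.15. Mcl1 (0.18), Bcl2l1 (0.18), Bcl2l2 (-0.20), Casp9 (-0.44), Bak1 (-0.59), Diablo (-0.14) and Birc2 (0.10) did not pass.

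The message of the enzyme that doxorubicin poisons fell. Top2a, the topoisomerase II isoform of dividing cells, was at 8.09 and 7.95 on the WT Dox+ arrays, against 10.94 and 10.92 on the WT Dox- arrays. It fell by 2.91 ± 0.15 (adjusted p = 7.49e-06), which was among the 15 largest falls of all named genes. Top2b, the isoform that resting cells also use, was above background in WT Dox- cells only, where it was at 6.53 and 6.09, and was at least 1.28-fold lower in WT Dox+ cells (adjusted p = 0.00544). Such a bound is given wherever both arrays of a group lay in the range of the control rows, and takes the lowest signal above background in place of the dim value. A gene above background on 1 of the 2 arrays of a group is given with its fitted difference, and 15 of the genes named as changed were of this kind, namely Abcc3, Amer2, Cyp7b1, Dll1, Dut, Krt8, Mmp10, Pcna, Pde1a, Pdgfb, Psmb9, Rsad2, S100a7a, Trib3 and Zfp296. Top1, whose product nicks one strand, differed by 0.06 ± 0.16 and did not pass. Top3a was at 7.30 and 7.47 in WT Dox+ cells and not above background in WT Dox- cells, at least 2.48-fold higher (adjusted p = 7.37e-05). Abcb1b, one of the mouse P-glycoprotein genes and a pump that exports doxorubicin, was at 10.24 and 10.24 on the WT Dox+ arrays, against 8.39 and 8.07 on the WT Dox- arrays. It rose by 2.01 ± 0.14 (adjusted p = 2.36e-05), while Abcc3 fell by 0.80 ± 0.19. Abcc1, another drug exporter, was at 6.04 and 5.93 in WT Dox+ cells and not above background in WT Dox- cells (adjusted p = 0.0219). These levels lay below the lowest signals above background on the WT Dox- arrays, 6.06 and 6.09, so no bound on its rise can be given. Its call rests on the fitted difference alone. Over these 10 genes 3 rose and 3 fell, the rest being Top3b, Top1mt and Abcc5 with Top1, and the median changed sign over the scalings.

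Most DNA replication genes fell. Of 40 genes 3 rose and 26 fell, at a median of -0.75. The polymerase delta genes came first: Pold2 was at 6.99 and 6.83 on the WT Dox+ arrays, against 9.33 and 9.40 on the WT Dox- arrays, and fell by 2.45 ± 0.12 (adjusted p = 6.76e-06). Pold1, the catalytic subunit, was at 7.56 and 7.68 on the WT Dox+ arrays, against 9.93 and 9.88 on the WT Dox- arrays. Pold3 fell by 1.36 ± 0.13, while Pold4, the smallest subunit and not on the list, rose by 0.87 ± 0.13. The enzymes that make nucleotides moved with them. Rrm1, the large subunit of ribonucleotide reductase, was at 9.24 and 9.29 on the WT Dox+ arrays, against 11.33 and 11.23 on the WT Dox- arrays. Tk1, thymidine kinase, fell by 2.22 ± 0.15, Tyms, thymidylate synthase, fell by 0.73 ± 0.13 and Dut fell by 0.77 ± 0.20. Of the MCM helicase, Mcm2 was at 7.63 and 7.64 on the WT Dox+ arrays, against 9.41 and 9.53 on the WT Dox- arrays. Mcm3, Mcm5 and Mcm6 fell (-1.02 ± 0.15, -0.98 ± 0.14 and -1.07 ± 0.18), whereas Mcm4 (-0.01) and Mcm7 (0.27) did not pass.

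Origin licensing genes were also lower, since Cdt1 fell by 1.78 ± 0.24, Cdc6 fell by 0.79 ± 0.23, Orc5 fell by 1.02 ± 0.14 and Mcm10 fell by 1.19 ± 0.14. Pcna, the sliding clamp, fell by 1.21 ± 0.16, and its loaders Rfc1, Rfc2 and Rfc4 fell (-1.83 ± 0.12, -0.96 ± 0.11 and -1.08 ± 0.28). The exceptions were 3. Rrm2, the S phase subunit of ribonucleotide reductase, rose by 1.01 ± 0.17, Chaf1b, a histone chaperone subunit, by 0.91 ± 0.13 and Cdc45, part of the active helicase, by 0.47 ± 0.16. Chaf1a, the partner of Chaf1b, fell by 0.81 ± 0.18. Fen1 (0.05), Rpa1 (-0.12), Lig1 (-0.28), Dck (0.49), Orc4, Orc6, Rfc5, Gins3 and Gins4 did not pass.

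The promoters of the replication genes that fell are shown for the E2F site, the letters through which E2F and RB, and the DREAM complex, are known to hold S phase genes. Of 26 genes that fell, 23 had a promoter in the RefSeq table, and 4 of these (17.4%) held TTTGGCGC, TTTCCCGC or TTTCGCGC on either strand in the 250 bases before the start. Over all 27025 genes with a promoter the share was 1.78%, and over the 7017 tested genes with one 3.41%. The genes were Mcm5, Mcm6, Cdc6 and Orc3. Among all 35 replication genes with a promoter, whether they fell or not, 6 (17.1%) held one, Mcm7 and Gins3 being the others. The 150 bases before the start of 3 of them are printed 5′ to 3′ on the gene's strand from RefSeq, GRCm38.p6, with the matches in capitals.
Mcm5: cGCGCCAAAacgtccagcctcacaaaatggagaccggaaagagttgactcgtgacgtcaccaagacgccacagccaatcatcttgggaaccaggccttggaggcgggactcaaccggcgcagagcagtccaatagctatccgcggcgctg (chr8:75109359-75109508, plus strand)
Mcm6: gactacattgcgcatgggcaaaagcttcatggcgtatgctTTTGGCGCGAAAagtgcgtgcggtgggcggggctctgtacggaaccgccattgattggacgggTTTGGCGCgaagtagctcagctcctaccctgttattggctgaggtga (chr1:128359706-128359855, minus strand)
Cdc6: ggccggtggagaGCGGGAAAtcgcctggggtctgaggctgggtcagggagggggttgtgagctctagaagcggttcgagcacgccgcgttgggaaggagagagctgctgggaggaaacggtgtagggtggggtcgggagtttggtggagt (chr11:98908001-98908150, plus strand)
In Mcm6 the capitals hold 3 matches, of which 2 overlap in 1 run on opposite strands. A match is a run of letters and not a measured binding site.

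Mitosis genes changed in both directions, with more falls than rises. Of 29 tested 5 rose and 13 fell, at a median of -0.28. Cdk1, the kinase that drives entry into mitosis, was at 10.05 and 10.06 on the WT Dox+ arrays, against 10.99 and 11.05 on the WT Dox- arrays. It fell by 0.97 ± 0.12 (adjusted p = 0.000312), and Foxm1, the transcription factor of G2 genes, fell by 1.06 ± 0.22. The spindle genes Tpx2, Kif11, Kif4 and Kif2c fell (-1.31 ± 0.18, -0.69 ± 0.11, -0.85 ± 0.15 and -0.42 ± 0.12). Anln, the anillin of the cleavage furrow, fell by 1.37 ± 0.12, Kif23 fell by 0.40 ± 0.13, Birc5, survivin, fell by 0.72 ± 0.13, and the checkpoint genes Mad2l1 and Bub3 fell (-0.92 ± 0.15 and -0.40 ± 0.14). Fzr1, which activates the APC/C in G1, and Spc24 fell (-0.93 ± 0.11 and -0.57 ± 0.14). Against them, Aurka, a spindle pole kinase, rose by 0.97 ± 0.15, Spc25, a kinetochore gene, by 1.5 ± 0.19, Cenpa, the centromeric histone, by 0.77 ± 0.14, Nusap1 by 0.45 ± 0.12 and Cdc25c by 1.25 ± 0.33.

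The remaining mitosis genes did not pass, and Cdca8 and Espl1 among them differed by -0.36 and -0.28. Plk1, the central mitotic kinase, was at 11.24 and 11.29 on the WT Dox+ arrays, against 11.13 and 11.14 on the WT Dox- arrays, a difference of 0.13 ± 0.18 that did not pass. Cdc20 (0.23), Bub1b (0.03), Aspm (-0.10), Prc1 (-0.18), Ndc80 (0.06), Incenp (-0.10), Espl1 (-0.28), Cdca8 (-0.36), Kif22 (0.18) and Cdc25b did not pass either. Mitosis promoters are known to carry a CCAAT box and a cell cycle homology region, which was searched as TTTGAA and, in its other spelling, as TTTAAA on both strands. CCAAT was found for 6 of the 10 mitosis genes that fell and had a promoter (60%). The share was 41.2% over tested genes with a promoter and 37.5% over all genes with one. The homology region in either spelling was found for 5 of the 10 (50%), against 20.2% and 28.1%. Over all 24 mitosis genes with a promoter the shares were 75% and 50%, so the genes that did not fall held them too. The Cdk1 promoter is shown with its cell cycle homology letters in capitals.
Cdk1: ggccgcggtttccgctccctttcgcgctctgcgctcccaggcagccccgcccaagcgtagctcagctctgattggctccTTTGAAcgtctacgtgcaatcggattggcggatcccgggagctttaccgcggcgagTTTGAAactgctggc (chr10:69352913-69353062, minus strand)
The second match lies 12 bases before the start.

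The G1 machinery moved in both directions. Of 23 genes 5 rose and 9 fell (median -0.33). Rb1, the retinoblastoma protein that restrains E2F, was at 11.50 and 11.45 on the WT Dox+ arrays, against 9.64 and 9.34 on the WT Dox- arrays, a rise of 1.99 ± 0.15 (adjusted p = 3.74e-05). The kinase inhibitors Cdkn1c (p57) and Cdkn2c (p18) rose by 1.32 ± 0.12 and 1.24 ± 0.13, whereas Cdkn2a and Cdkn2b fell (-0.45 ± 0.14 and -0.38 ± 0.11). Skp2, which marks p27 for destruction, was at 6.93 and 7.23 on the WT Dox+ arrays, against 9.33 and 9.06 on the WT Dox- arrays, and fell by 2.12 ± 0.22. E2f1 rose by 0.95 ± 0.13 and Cdc25a by 0.71 ± 0.24, while E2f3, E2f6, Rbl1 and Ccne1 fell (-1.19 ± 0.15, -0.99 ± 0.14, -1.0 ± 0.21 and -0.72 ± 0.14). Cdk2 fell by 0.84 ± 0.17 and Ccnd3 fell by 0.38 ± 0.12. Ccnd1 (-0.20), Ccnd2 (-0.18), Ccne2 (0.54), Cdkn1b (0.13), Cdkn2d (-0.02), E2f2, E2f4 (-0.69), E2f5 (-0.33) and Tfdp1 (-0.27) did not pass.

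Repair genes outside the p53 list fell more often than they rose. Of 29 tested 7 rose and 16 fell, at a median of -0.57, or -0.45 with genes at their bound. Clspn, claspin, which brings CHK1 to stalled forks, was at 7.81 and 7.90 on the WT Dox+ arrays, against 9.77 and 9.81 on the WT Dox- arrays, and fell by 1.93 ± 0.11 (adjusted p = 1.27e-05). The crosslink repair genes Fancd2, Fancc and Fanci were not above background in WT Dox+ cells, and lay at least 2.5-fold, 1.49-fold and 1.45-fold lower there. Rad54l, a recombination motor, fell by 1.44 ± 0.19, and Rad51c was at least 1.36-fold lower. Parp1, the break sensor, fell by 0.62 ± 0.14, Chek2 fell by 0.58 ± 0.15, H2ax, whose histone is phosphorylated around breaks, fell by 0.57 ± 0.20 and Prkdc, the DNA-dependent kinase, by at least 1.52-fold. Going the other way, Xrcc1 and Ung of base excision repair rose by 1.47 ± 0.15 and 1.22 ± 0.15. Ercc1 of excision repair rose by 1.17 ± 0.11 and Msh6 of mismatch repair by 1.23 ± 0.15. Rad9a and Rad1, parts of the clamp that activates ATR, rose by 1.64 ± 0.17 and 1.23 ± 0.15, although another Rad9a probe did not pass (0.56). Rad50 rose by 0.60 ± 0.15 and its partner Mre11a fell by 0.34 ± 0.12. Atm (-0.32), Brca2 (-0.77), Blm (-0.23), Lig3 (0.05), Lig4 (-0.36) and Xrcc6 (0.30) did not pass.

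Histone transcripts rose even as replication genes fell. Of 39 replication-dependent histone genes 27 rose and 8 fell. All 10 H2B genes and all 6 H3 genes tested rose, with medians of 1.57 and 2.42. For H4, 7 rose and 0 fell, at a median of 2.55. H4c8 was at 11.67 and 11.76 on the WT Dox+ arrays, against 8.76 and 8.79 on the WT Dox- arrays, a rise of 2.94 ± 0.12 (adjusted p = 2.77e-06). H2bc6 was at 9.49 and 9.56 on the WT Dox+ arrays, against 6.90 and 6.81 on the WT Dox- arrays. No treated array overlapped an untreated one on either gene. H3c6, H3c1 and H3c4 rose by 2.75 ± 0.14, 2.58 ± 0.14 and 2.65 ± 0.15, and H4c11 and H4c12 by 2.94 ± 0.18 and 2.68 ± 0.19.

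The H2A genes alone divided, as 4 rose and 8 fell. H2ac6 was at 8.72 and 8.36 in WT Dox+ cells and not above background in WT Dox- cells, at least 5.54-fold higher. H2ac8, H2ac4 and H2ac18 rose by 2.15 ± 0.16, 1.70 ± 0.13 and 1.07 ± 0.12. H2ac15 was at 10.43 and 10.58 on the WT Dox+ arrays, against 12.08 and 11.83 on the WT Dox- arrays, and fell by 1.45 ± 0.16. H2ac7, H2ac10, H2ac24, H2ac22, H2ac11, H2ac12 and H2ac20 fell (-1.42, -1.13, -1.06, -1.02, -1.05, -0.76 and -0.41). Replication-dependent histone genes are nearly identical in sequence, so a probe may read several of them, and the counts are uncertain for that reason. Their messages normally end in a stem-loop and not in a poly(A) tail, and the labels do not give the priming of the labelling reaction. Of the histone variants outside the clusters, H1f10 rose by 1.44 ± 0.17 and H3f3a by 0.58 ± 0.13 (a second H3f3a probe did not pass, at -0.46), while H3f3b (0.35), H2az1 (-0.28) and Macroh2a1 (0.22) did not pass. The only linker histone tested, H1f2, differed by 0.05 ± 0.12.

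Interferon-stimulated genes rose together. Of 30 tested 20 rose and 3 fell, at a median of 0.91, or 0.58 with genes that lacked a measured WT Dox- level at their bound. Usp18, which strips ISG15 from proteins and dampens the interferon receptor, was at 12.54 and 12.67 on the WT Dox+ arrays, against 9.12 and 9.11 on the WT Dox- arrays. It had the largest rise of the list, 3.49 ± 0.12 (adjusted p = 1.79e-06). Isg15, the ubiquitin-like modifier itself, was at 10.78 and 10.80 on the WT Dox+ arrays, against 8.72 and 8.95 on the WT Dox- arrays. The interferon-inducible GTPases followed: Gbp3 was at 9.39 and 9.21 on the WT Dox+ arrays, against 6.95 and 6.84 on the WT Dox- arrays. Igtp and Gbp2 rose by 2.30 ± 0.17 and 1.10 ± 0.13, and Irgm1 by 0.37 ± 0.13. Rsad2, viperin, which makes a chain-terminating nucleotide, was at 7.82 and 7.94 on the WT Dox+ arrays, against 6.10 and 5.67 on the WT Dox- arrays. Ifi35 rose by 2.29 ± 0.15, Parp14 by 1.85 ± 0.13, Oasl2 by 1.75 ± 0.27, Oas1g by 1.19 ± 0.34 and Adar, the RNA-editing deaminase, by 1.15 ± 0.19. Irf7, the factor that amplifies interferon genes, and Mx2, Dhx58, Oas2 and Cmpk2 were not above background in WT Dox- cells, and were at least 2.78-fold, 1.34-fold, 1.67-fold, 1.07-fold and 1.35-fold higher in WT Dox+ cells.

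The members that went down were few. Ifit2 fell by 1.13 ± 0.18, Irf9, part of the complex that reads interferon, fell by 0.53 ± 0.13, and Eif2ak2, the RNA-activated kinase PKR, fell by 0.51 ± 0.13. Ifit3, next of kin to Ifit2, rose by 0.63 ± 0.11 at its brightest probe, and its 2 other probes did not pass (0.19 and -0.10). Irf1 did not pass at its brightest probe (0.38), whereas its 3 other probes rose by 0.84, 0.55 and 0.71. Stat2 (0.35), Bst2 (0.45), Zbp1 (0.34), Lgals9 (0.25), Ddx58 (-0.39) and Ifi47 (-0.69) did not pass. The promoters are shown because 9 of the 15 interferon-stimulated genes that rose and had one (60%) held the core of the interferon-stimulated response element, GAAANNGAA on either strand, within 250 bases. The share was 7.31% over tested genes with a promoter and 8.18% over all genes with one. The carriers were Isg15, Gbp3, Igtp, Rsad2, Gbp2, Adar, Ifit3, Irgm1 and Oas1g. Among all 24 tested members of the list with a promoter, whether they rose or not, 12 (50%) held it. The others were Bst2, Lgals9 and Stat2, which did not pass. The 150 bases before the start follow for 4 of them, with the matches in capitals.
Isg15: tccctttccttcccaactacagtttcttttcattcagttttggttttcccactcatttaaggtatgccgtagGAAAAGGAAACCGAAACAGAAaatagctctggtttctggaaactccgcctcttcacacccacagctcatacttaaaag (chr4:156200819-156200968, minus strand)
Gbp3: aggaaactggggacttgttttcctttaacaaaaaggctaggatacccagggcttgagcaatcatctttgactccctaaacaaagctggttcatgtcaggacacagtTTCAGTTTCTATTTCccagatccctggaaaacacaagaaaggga (chr3:142559894-142560043, plus strand)
Igtp: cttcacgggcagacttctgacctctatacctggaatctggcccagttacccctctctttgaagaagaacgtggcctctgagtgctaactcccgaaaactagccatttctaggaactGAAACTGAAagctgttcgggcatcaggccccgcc (chr11:58199406-58199555, plus strand)
Rsad2: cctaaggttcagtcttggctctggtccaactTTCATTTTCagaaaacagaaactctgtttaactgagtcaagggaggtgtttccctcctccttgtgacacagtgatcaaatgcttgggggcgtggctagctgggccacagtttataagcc (chr12:26456453-26456602, minus strand)
Isg15 holds 3 overlapping matches and Gbp3 holds 2, which read on the opposite strand.

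Antigen presentation changed at a few genes. Of 13 tested 5 rose and 1 fell, and the median changed sign over the scalings. Psmb9, a catalytic subunit of the immunoproteasome, was at 9.19 and 9.07 on the WT Dox+ arrays, against 6.27 and 6.07 on the WT Dox- arrays, a rise of 2.96 ± 0.17 (adjusted p = 1.37e-05). Nlrc5, the transactivator of MHC class I genes, was at 9.11 and 9.44 on the WT Dox+ arrays, against 6.75 and 6.49 on the WT Dox- arrays. Tap1, a chain of the peptide transporter and also a known p53 target, was at 8.78 and 8.84 on the WT Dox+ arrays, against 6.33 and 6.27 on the WT Dox- arrays. Tapbp, tapasin, and B2m, the light chain of class I, rose by 0.64 ± 0.17 and 0.36 ± 0.12. Psmb10 fell by 0.66 ± 0.16. Tap2 (-0.36), H2-D1 (-0.20), Psme1 (0.09), Psme2 (0.31), Tapbpl (-0.34), Calr (-0.14) and Pdia3 (0.14) did not pass.

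The feedback genes of NF-kB and the secreted inflammatory factors changed in both directions. Of 12 NF-kB genes 3 rose and 2 fell. The inhibitor Nfkbie rose by 2.11 ± 0.39, Tnfaip3, the editing enzyme A20, by 1.44 ± 0.17 and Nfkb2 by 1.04 ± 0.25. Nfkbiz and Bcl3 fell (-1.16 ± 0.12 and -1.06 ± 0.12), and Nfkbia (0.38), Nfkbib (0.30), Relb (0.45), Rela (0.11), Ikbkb (-0.13), Ikbkg (-0.26) and Tnip1 (-0.37) did not pass. Of 19 chemokine and cytokine genes 7 rose and 4 fell. Both lists had medians that changed sign over the scalings. Cxcl12, the stromal chemokine that holds CXCR4-bearing cells in place, was at 11.80 and 11.55 on the WT Dox+ arrays, against 14.89 and 14.86 on the WT Dox- arrays. It fell by 3.20 ± 0.14 (adjusted p = 5.06e-06) and stayed bright even so. Il1rn, the antagonist of interleukin 1, fell by 2.70 ± 0.13, Ccl7 fell by 2.12 ± 0.20 and Cxcl5, not above background in WT Dox+ cells, by at least 3.71-fold. The membrane-bound chemokine genes Cxcl16 and Cx3cl1 rose by 1.88 ± 0.19 and 1.54 ± 0.17. Lif and Il11, cytokines of the interleukin 6 family, rose by 1.62 ± 0.18 and 1.13 ± 0.14, and Il15, Ccl9 and Ccl2 by 1.14 ± 0.31, 1.09 ± 0.15 and 0.79 ± 0.15. Il6 itself (0.19), Cxcl1 (0.19), Ccl5, Cxcl14 (-0.13), Csf1 (0.02), Mif (-0.04), Tslp and Ppbp (-0.38) did not pass.

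**Figure D3:**
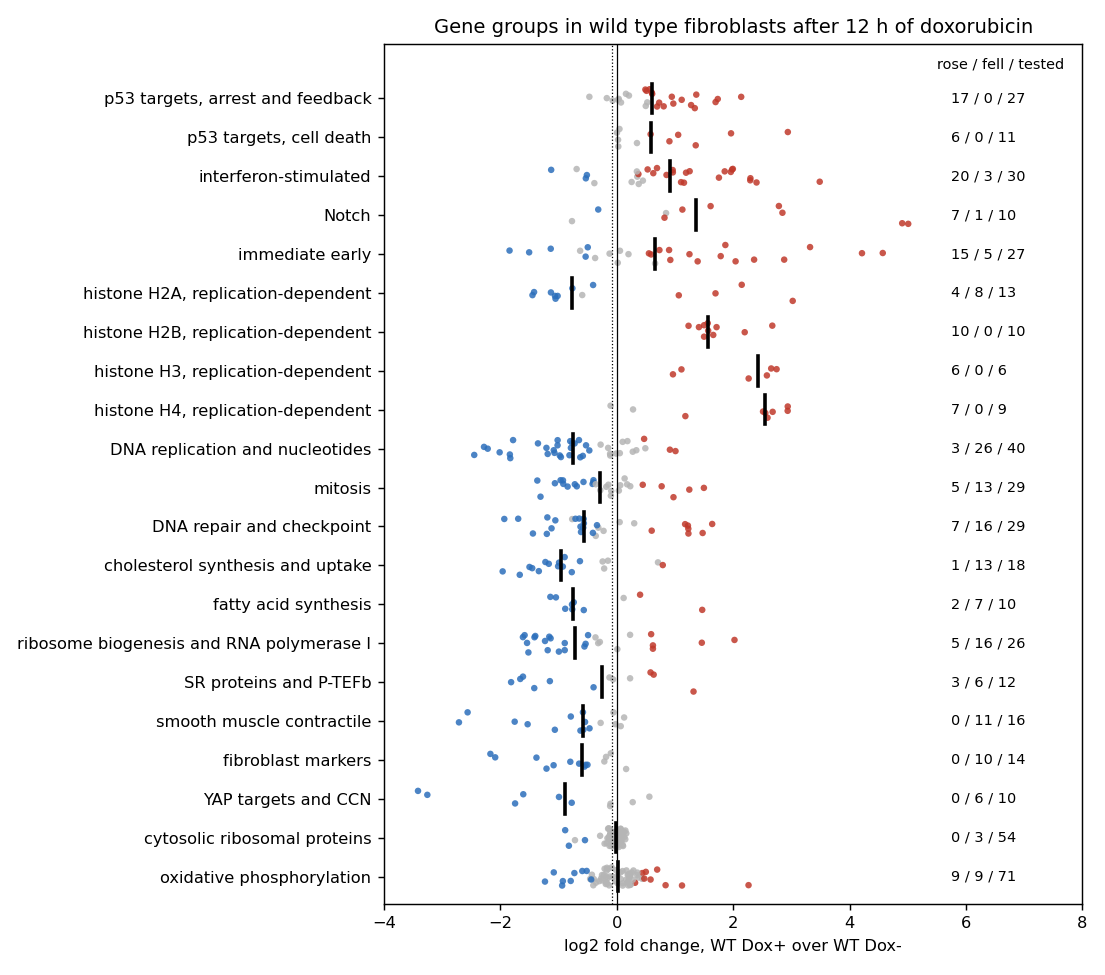
Differences of the tested genes of each list (horizontal axis, WT Dox+ minus WT Dox-, log2 units), 1 point per gene in red where it rose, blue where it fell and grey where it did not pass. Bars are list medians, the dotted line is the median of all genes, and the numbers give how many rose, fell and were tested. H3, H4 and H2B histone genes, Notch genes and interferon-stimulated genes lie to the right, and cholesterol synthesis, YAP target and replication genes to the left.

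Notch pathway genes gave the highest median of the signalling lists. Of 10 tested 7 rose and 1 fell, at a median of 1.37. Notch receptors are cut when a neighbouring cell presents a ligand, and the freed domain turns on Hes and Hey repressors. Hey1, such a repressor, was at 11.59 and 11.48 on the WT Dox+ arrays, against 6.87 and 6.18 on the WT Dox- arrays, a rise of 5.01 ± 0.22 (adjusted p = 5.29e-06). Nrarp, a target that feeds back on the Notch complex, was at 10.37 and 10.26 in WT Dox+ cells and not above background in WT Dox- cells, at least 18.9-fold higher (adjusted p = 6.76e-06). Hey2 was likewise at least 1.11-fold higher. The receptors and ligands rose too. Notch3 was at 10.06 and 10.17 on the WT Dox+ arrays, against 7.29 and 7.24 on the WT Dox- arrays, a rise of 2.85 ± 0.13, and Notch1 rose by 1.61 ± 0.22. Of the ligands, Dll1 rose by 1.13 ± 0.25, and Jag2 was at 7.82 and 7.66 in WT Dox+ cells, at least 3.18-fold above WT Dox- cells. Hes1, the best known target, was the exception and fell by 0.32 ± 0.12. Maml1 (-0.77), a coactivator, and Notch4 (0.85) did not pass.

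Immediate early genes, which normally peak within an hour of a stimulus, rose at most of the members tested. Of 27 tested 15 rose and 5 fell, at a median of 0.66. Dusp2, a phosphatase that switches off MAP kinases, was at 9.14 and 9.50 in WT Dox+ cells and not above background in WT Dox- cells, at least 9.48-fold higher. Egr4, Fosb, Arc and Atf3 were also above background after the drug only, at least 7.69-fold, 5.93-fold, 3.23-fold and 2.21-fold higher. Egr2, a zinc-finger factor of the same family, was at 10.40 and 10.36 on the WT Dox+ arrays, against 7.46 and 7.55 on the WT Dox- arrays. Of the AP-1 subunits, Fos, Fosl1 and Junb rose by 2.36 ± 0.21, 2.04 ± 0.17 and 1.25 ± 0.11, Jund fell by 0.50 ± 0.17, and Jun did not pass (-0.37). Egr1 rose by 0.90 ± 0.11, Zfp36, which destabilizes AU-rich messages, by 1.39 ± 0.15, Dusp4 by 0.92 ± 0.12, Btg1 by 0.59 ± 0.17 and Maff by 0.55 ± 0.13, and Nr4a2 was at least 1.63-fold higher. Klf2, Klf6 and Klf4 fell (-1.84 ± 0.13, -1.51 ± 0.11 and -0.54 ± 0.18), and Cebpb fell by 1.14 ± 0.23. Myc, which was not above background in WT Dox+ cells (adjusted p = 0.145), Dusp1 (-0.12), Dusp6 (0.20), Ier3 (0.02), Klf10 (0.05) and Spry4 (0.66) did not pass.

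Over the whole Kruppel-like family 1 rose and 5 fell of 10, the falls adding Klf3 (-1.35 ± 0.23) and Klf7 (-0.66 ± 0.22) and the rise being Klf5 (1.78 ± 0.17). Klf9 (0.16), Klf13 (-0.09) and Klf16 (0.30) did not pass.

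**Figure D4:**
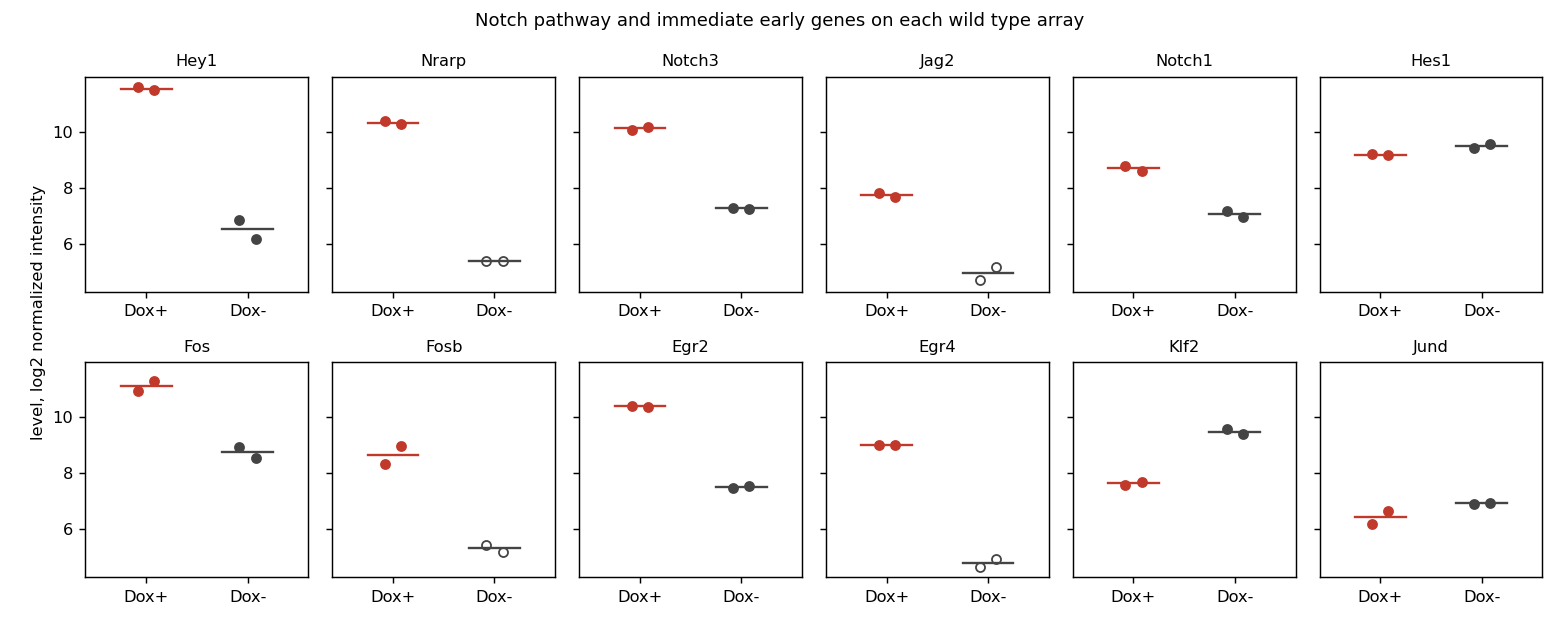
Level of 6 Notch pathway genes (top) and 6 immediate early genes (bottom) on each array (vertical axis, log2 normalized intensity), with the 2 WT Dox+ arrays in red left of the 2 WT Dox- arrays in grey and lines at the group means. Open circles are genes not above background on both arrays of that group, and Hes1, Klf2 and Jund are the genes with the WT Dox+ arrays below the WT Dox- arrays.

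Most genes of cholesterol synthesis fell. Of 18 tested 1 rose and 13 fell, at a median of -0.96. The genes of this pathway are known to be switched on together by SREBP2 when membranes run short of cholesterol. Hmgcs1, the synthase at the head of the pathway, was at 13.40 and 13.38 on the WT Dox+ arrays, against 14.77 and 14.69 on the WT Dox- arrays. It fell by 1.34 ± 0.11 (adjusted p = 6.52e-05), and stayed among the bright genes. Mvd, Fdps, Sqle, Lss, Cyp51, Msmo1, Sc5d and Dhcr7, which carry the route from mevalonate to cholesterol, fell (-1.5, -1.01, -0.99, -1.23, -1.45, -1.17, -0.93 and -0.90). Insig1, the anchor that retains SREBP when sterol is plentiful and itself an SREBP target, was at 6.80 and 6.50 on the WT Dox+ arrays, against 8.57 and 8.66 on the WT Dox- arrays. Stard4, a cholesterol carrier, was at 7.62 and 7.67 on the WT Dox+ arrays, against 9.35 and 9.27 on the WT Dox- arrays. Srebf2, which encodes SREBP2, fell by 0.77 ± 0.16 and Pmvk fell by 0.63 ± 0.21. Hsd17b7 rose by 0.79 ± 0.11, and Tm7sf2 (0.71), Nsdhl (-0.24), Ebp (-0.22) and Idi1 (-0.15) did not pass.

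The sterol regulatory element, TCACNCCAC on either strand, was found for 1 of the 10 cholesterol genes that fell and had a promoter (10%), namely Hmgcs1. The share was 1.27% over tested genes with a promoter and 1.22% over all genes with one. The 180 bases before the start of Hmgcs1 are shown with the element in capitals, since it is the only one found.
Hmgcs1: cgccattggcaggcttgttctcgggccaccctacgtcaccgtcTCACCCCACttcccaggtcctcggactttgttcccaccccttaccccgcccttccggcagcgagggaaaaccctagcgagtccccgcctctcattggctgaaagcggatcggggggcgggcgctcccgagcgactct (chr13:119690171-119690350, plus strand)
Its centre lies 133 bases before the start.

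Fatty acid synthesis followed the same direction, as 2 rose and 7 fell of 10 (median -0.75). Acaca, the carboxylase that commits acetyl-CoA to fat, fell by 1.05 ± 0.13. The desaturases Scd1, Scd2 and Fads1 fell (-0.77 ± 0.14, -0.89 ± 0.11 and -0.77 ± 0.13), the elongases Elovl6 and Elovl5 fell (-0.74 ± 0.15 and -0.57 ± 0.15), and Acsl3 fell by 1.14 ± 0.13. Srebf1, the sister factor of Srebf2, rose by 1.47 ± 0.30 and Acly by 0.40 ± 0.13. Fads2 (0.12) did not pass.

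The enzymes and pumps that dispose of sterol gave some of the largest values of the experiment. Cyp27a1, the mitochondrial enzyme that makes 27-hydroxycholesterol, was at 11.94 and 12.09 on the WT Dox+ arrays, against 6.97 and 6.48 on the WT Dox- arrays. Its rise of 5.30 ± 0.19 (adjusted p = 2.4e-06) was close to that of a second probe above background on all 4 arrays, which rose by 5.14. Cyp7b1, the next enzyme in oxysterol breakdown, was at 6.34 and 4.91 on the WT Dox+ arrays, against 8.51 and 8.61 on the WT Dox- arrays, and fell by 2.94 ± 0.40 (adjusted p = 0.000568), with only 1 WT Dox+ array above background. Abcg1, a sterol exporter, was not above background in WT Dox- cells and was at least 1.67-fold higher in WT Dox+ cells, and Npc2 rose by 0.63 ± 0.16. Nr1h3 (0.44), which encodes the oxysterol receptor LXR alpha, Apoe (-0.14) and Ch25h (-0.06) did not pass. Over the list 3 rose and 1 fell of 7.

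Nucleolar genes fell on balance. Of 26 genes of ribosome assembly and RNA polymerase I 5 rose and 16 fell, at a median of -0.73. Nop56 and Nop58, core proteins of the box C/D particles that guide RNA methylation, fell (-1.61 ± 0.24 and -1.42 ± 0.17). Pes1 of the large subunit, Tcof1, the treacle protein, and Rrp1b fell (-1.59 ± 0.22, -1.54 ± 0.17 and -1.52 ± 0.30). Polr1a, the largest subunit of RNA polymerase I, fell by 0.90 ± 0.12, Ncl, nucleolin, fell by 0.49 ± 0.13 and Fbl, fibrillarin, fell by 0.54 ± 0.11. Gnl3, Heatr1, Ebna1bp2 and Rpf2 fell (-1.23 ± 0.12, -1.16 ± 0.12, -1.19 ± 0.14 and -1.40 ± 0.27). Rrp9, a further box C/D protein, went the other way and was at 11.08 and 11.25 on the WT Dox+ arrays, against 9.04 and 9.24 on the WT Dox- arrays. Polr1e, Polr1d, Brix1 and Ubtf rose by 1.46 ± 0.11, 0.59 ± 0.12, 0.62 ± 0.13 and 0.62 ± 0.21. Npm1 (-0.32), Bop1 (0.23), Nop2 (-0.29), Nhp2 (0.01) and Polr1c (-0.37) did not pass.

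The ribosomal proteins themselves barely moved. Of 54 cytosolic ones 0 rose and 3 fell, at a median of -0.02. This is the smallest share called of any list with over 10 members, against 56.9% of all genes. Rpl4 fell by 0.89 ± 0.11 and Rpl22 fell by 0.82 ± 0.12, and Rpsa was at least 1.02-fold lower. Of 67 mitochondrial ribosomal protein genes 11 rose and 26 fell, led by Mrps16, which fell by 2.17 ± 0.13, and Mrpl28, which rose by 1.29 ± 0.13. Oxidative phosphorylation was balanced, since 9 rose and 9 fell of 71 at a median of 0.01 that changed sign over the scalings. Its risers were led by Cox6b2 (2.26 ± 0.17) and Ndufb6 (1.12 ± 0.14) and its fallers by Ndufs8 (-0.94 ± 0.13) and Atp5c1 (-0.93 ± 0.13). Of 29 proteasome genes 2 rose and 8 fell, where Psmd11 fell by 1.29 ± 0.13 and Psmc3 rose by 0.89 ± 0.11.

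RNA processing genes fell in 1 family. Of 8 SR protein genes, splicing factors with arginine and serine repeats, 6 fell and 0 rose. Srsf1 was at 11.83 and 11.83 on the WT Dox+ arrays, against 13.54 and 13.75 on the WT Dox- arrays, and fell by 1.82 ± 0.13 (adjusted p = 3.08e-05). Srsf2, Srsf3, Srsf10, Srsf6 and Srsf9 fell (-1.66 ± 0.13, -1.61 ± 0.16, -1.42 ± 0.16, -1.15 ± 0.13 and -0.40 ± 0.11). Srsf4 (-0.06) and Srsf5 (-0.13) did not pass. The elongation genes on the same list went up. Hexim1, which holds the elongation kinase P-TEFb inactive and is known to rise when that kinase is released, was at 9.59 and 9.45 on the WT Dox+ arrays, against 8.20 and 8.20 on the WT Dox- arrays, a rise of 1.32 ± 0.13 (adjusted p = 0.000113). Cdk9, the kinase, and Supt5, which it phosphorylates, rose by 0.58 ± 0.16 and 0.63 ± 0.12, and its cyclin gene Ccnt1 did not pass (0.23). Genes of message decay had 0 rose and 6 fell of 13. Tnrc6a of the microRNA machinery fell by 0.81 ± 0.14, Cnot2 and Cnot3 of the deadenylase fell (-0.68 ± 0.13 and -0.42 ± 0.12), the decapping factor Dcp1a fell by 0.77 ± 0.19 and Zfp36l1 fell by 0.51 ± 0.11, and Xrn1, the 5′ exonuclease, was at least 1.4-fold lower. Pan2, Upf1, Cnot4, Cnot6l, Cnot7, Tob1 and Tob2 did not pass, and their differences lay between -0.40 and 0.25.

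Zinc-finger genes of the Zfp series fell more often than they rose, since 21 rose and 59 fell of 142, at a median of -0.43, or -0.33 with genes at their bound. Zfp90 and Zfp521 fell (-2.45 ± 0.14 and -2.31 ± 0.23). Zfp296 was the largest rise of the series, 3.48 ± 0.19, and Zfp365 rose by 2.56 ± 0.12.

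Fibroblast identity and contractile genes fell. Of the 14 fibroblast markers 0 rose and 10 fell, at a median of -0.60. The platelet-derived growth factor receptors, through which serum factors drive fibroblasts, led them. Pdgfra was at 9.20 and 9.24 on the WT Dox+ arrays, against 11.33 and 11.29 on the WT Dox- arrays. Pdgfrb was at 6.62 and 6.83 on the WT Dox+ arrays, against 8.92 and 8.87 on the WT Dox- arrays. Both fell at least 4-fold (-2.09 ± 0.20 and -2.17 ± 0.14). Prrx1, a mesenchymal homeobox gene, fell by 1.21 ± 0.25, Lum fell by 1.09 ± 0.11, Ddr2, a collagen receptor, fell by 0.65 ± 0.19, Fap fell by 0.54 ± 0.16 and Dcn fell by 0.50 ± 0.14. Vim (-0.10), Thy1 (0.16), S100a4 (-0.21) and Twist1 (-0.18) did not pass. The summed level of the fibroblast list was 15.8 and 15.86 in WT Dox+ cells, against 16.12 and 16.1 in WT Dox- cells. Fewer cells of a type and less message per cell cannot be told apart in such samples.

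Markers of other cell types moved as follows beside the fibroblast genes, and their part in the result was not tested. Macrophage markers had 2 rose and 2 fell of 8, with summed levels of 13.15 and 13.23 in WT Dox+ cells and 13 and 12.99 in WT Dox- cells. Cd14 rose by 2.02 ± 0.13 and Laptm5 by 0.51 ± 0.16, while C1qa was at least 1.35-fold lower and Fcer1g fell by 0.38 ± 0.14. Epithelial markers had summed levels of 10.79 and 10.74 in WT Dox+ cells, against 9.884 and 9.756 in WT Dox- cells, where Krt19, a keratin, rose by 2.74 ± 0.20, while Krt8 fell by 1.02, and the other 3 of 5 did not pass. Neural markers summed to 10.91 and 11.28 in WT Dox+ cells, against 9.932 and 9.842 in WT Dox- cells, since Nes, nestin, rose by 1.73 ± 0.18 while Stmn2 and Map2 fell (-0.86 ± 0.15 and -0.64 ± 0.15). Endothelial markers summed to 8.408 and 8.413 in WT Dox+ cells, against 7.872 and 7.943 in WT Dox- cells, with Esam at least 2.81-fold higher and Emcn (-0.29) not passing. The 1 erythroid gene tested, Hba-a1, was at least 3.6-fold higher in WT Dox+ cells. Mesothelial markers summed to 10.48 and 10.28 in WT Dox+ cells, against 10.71 and 10.79 in WT Dox- cells, where Wt1 fell by 0.96 ± 0.15 and Msln and Upk3b did not pass. Adipocyte markers summed to 11.03 and 10.93 in WT Dox+ cells, against 11.58 and 11.66 in WT Dox- cells, where Pparg and Lpl fell (-0.80 ± 0.12 and -0.63 ± 0.12).

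The contractile programme fell without exception among the genes that passed, as 0 rose and 11 fell of 16 (median -0.58). Mylk, the kinase that starts smooth muscle contraction, was at 7.76 and 7.39 on the WT Dox+ arrays, against 10.26 and 10.31 on the WT Dox- arrays, and fell by 2.71 ± 0.16 (adjusted p = 1.53e-05). Lmod1, an actin nucleator, and Myh11, the smooth muscle myosin, fell (-2.56 ± 0.13 and -1.76 ± 0.16). Cnn2, Cald1, Actn1, Vcl, Tpm1 and Tpm2 fell (-1.53, -1.07, -0.79, -0.63, -0.47 and -0.58), and Actg2 and Csrp1 fell (-0.57 and -0.55). Acta2, the actin usually taken to mark contractile fibroblasts, did not pass at its brightest probe (0.07), while 2 of its other probes fell (-0.75 and -0.70). Its mean over probes was -0.35 (adjusted p = 0.0216). Nor did Tagln (-0.28), Des (-0.02), Smtn (-0.06) or Srf (0.13), the factor that controls many of them, pass. Targets of YAP and the matricellular CCN genes fell with them, as 0 rose and 6 fell of 10 (median -0.88). Ccn5 was at 9.57 and 9.27 on the WT Dox+ arrays, against 12.76 and 12.91 on the WT Dox- arrays, and fell by 3.42 ± 0.16, the most of any named gene (adjusted p = 6.07e-06). Ankrd1 was at 8.67 and 8.44 on the WT Dox+ arrays, against 11.73 and 11.90 on the WT Dox- arrays. Ccn1 and Ccn2, the best known YAP targets, fell (-1.75 ± 0.18 and -1.61 ± 0.12), Ccn4 fell by 0.99 ± 0.13 and Amotl2 fell by 0.78 ± 0.15. Yap1 (-0.11), its partner Wwtr1 (0.56), Axl (0.27) and Crim1 (-0.11) did not pass.

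Matrix genes changed selectively. Eln, elastin, was at 7.30 and 6.97 on the WT Dox+ arrays, against 9.87 and 9.86 on the WT Dox- arrays, and fell by 2.72 ± 0.14 (adjusted p = 9.73e-06). The microfibril genes Mfap5 and Mfap2 fell (-1.83 ± 0.12 and -1.08 ± 0.11) and the crosslinking enzymes Lox and Loxl1 fell (-0.40 ± 0.12 and -0.57 ± 0.13), while Loxl4 rose by 1.47 ± 0.20. Ltbp1 fell by 0.46 ± 0.15 and Ltbp4 rose by 0.52 ± 0.15. Over the elastic fibre list 2 rose and 6 fell of 16, and Fbln1, Fbln2, Efemp1, Emilin1, Mfap4, Ltbp2, Ltbp3 and Loxl2 did not pass. Of 21 collagen genes 5 rose and 8 fell. The fibrillar collagens Col1a1, Col1a2, Col3a1, Col5a1 and Col5a2 fell (-0.55 ± 0.13, -0.80 ± 0.13, -1.38 ± 0.15, -0.35 ± 0.11 and -1.40 ± 0.24). Col18a1, a basement membrane collagen, rose by 2.35 ± 0.12 and Col7a1 by 0.98 ± 0.12, and Col27a1 and Col9a2 were at least 2.92-fold and 1.84-fold higher. Of 12 proteoglycans 3 rose and 5 fell, where Sdc1 and Gpc1 of the cell surface rose by 1.37 ± 0.11 and 0.89 ± 0.15 and Lum, Prelp and Ogn of the matrix fell (-1.09 ± 0.11, -0.89 ± 0.11 and -0.96 ± 0.14), and the median changed sign over the scalings. Of 15 matrix proteases and inhibitors 3 rose and 6 fell. Adamts5, an aggrecanase, was at 7.54 and 7.41 on the WT Dox+ arrays, against 10.16 and 10.22 on the WT Dox- arrays, and fell by 2.72 ± 0.13, and Adamts1, Mmp13 and Timp3 fell (-1.75 ± 0.13, -1.06 ± 0.12 and -0.80 ± 0.11), whereas Plau and Mmp10 rose by 1.06 ± 0.12 and 0.99 ± 0.19.

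Growth factor genes separated by ligand. Over 25 ligands, receptors and binding proteins 6 rose and 11 fell. Fgf7, a stromal factor for epithelia, fell by 2.20 ± 0.18, Vegfd fell by 1.87 ± 0.15 and Pdgfc fell by 1.41 ± 0.17. Pdgfa, Pdgfb, Vegfa, Vegfc and Hbegf rose by 0.96 ± 0.12, 1.86 ± 0.34, 0.82 ± 0.19, 1.35 ± 0.14 and 0.75 ± 0.11, while both receptors for the first pair fell as given above. Igf1, its receptor Igf1r and the binding proteins Igfbp4 and Igfbp5 fell (-0.38 ± 0.13, -0.98 ± 0.24, -0.76 ± 0.16 and -1.5 ± 0.15), and Igfbp3, a p53 target in human cells, rose by 0.56 ± 0.14. Fgfr1 and Fgfr2 fell (-0.65 ± 0.17 and -1.07 ± 0.17). Of 24 genes of the TGF-beta family 8 rose and 7 fell. Tgfb1, Tgfb2 and the receptor Tgfbr1 rose by 0.81 ± 0.16, 1.08 ± 0.17 and 0.88 ± 0.12, whereas Tgfbr2 and Tgfbr3 fell (-0.63 ± 0.11 and -1.62 ± 0.13). Bmp4 and its antagonist Grem1 fell (-1.67 ± 0.14 and -1.43 ± 0.20), and Id1 and Id2 rose by 0.70 ± 0.12 and 1.16 ± 0.20. The median of the TGF-beta list changed sign over the scalings.

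Genes of the ATF4 branch of the stress response fell more often than they rose. Of 22 genes of this branch and of the unfolded protein response 6 rose and 12 fell, at a median of -0.56. Atf4, which turns on amino acid supply when translation is stalled, was at 9.44 and 9.96 on the WT Dox+ arrays, against 11.66 and 11.48 on the WT Dox- arrays, and fell by 1.87 ± 0.20 (adjusted p = 0.000175). Its relative Atf5 fell by 1.92 ± 0.14, and its targets Asns, Trib3, Slc7a11, Psat1, Phgdh and Shmt2 fell (-1.57 ± 0.13, -1.38 ± 0.24, -0.86 ± 0.27, -0.60 ± 0.13, -0.54 ± 0.20 and -1.5 ± 0.12). In the endoplasmic reticulum, Herpud1, Xbp1, Hspa5 and Pdia4 fell (-1.53 ± 0.13, -1.08 ± 0.16, -0.87 ± 0.23 and -0.59 ± 0.14). Ppp1r15a, the phosphatase subunit GADD34 that lifts the translational block, rose by 1.65 ± 0.14. Edem1, Dnajb9 and Creld2 rose by 1.72 ± 0.16, 1.47 ± 0.14 and 1.16 ± 0.14, Slc7a5 by 0.59 ± 0.16 and Vldlr by 0.84 ± 0.13. Ddit3 (-0.44), Chac1 (0.18), Slc3a2 (0.19) and Hsp90b1 (-0.29) did not pass.

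Oxidative and heat stress genes responded singly and not as lists. Doxorubicin is known to cycle electrons to oxygen, and NRF2 drives the genes that answer this. Of 17 such genes 5 rose and 4 fell. Srxn1, sulfiredoxin, was at 12.33 and 12.47 on the WT Dox+ arrays, against 9.50 and 9.51 on the WT Dox- arrays, a rise of 2.90 ± 0.12 (adjusted p = 4.28e-06). Hmox1, heme oxygenase, rose by 1.57 ± 0.14, Nfe2l2, which encodes NRF2, by 0.72 ± 0.14, Sod1 by 0.66 ± 0.15 and Gpx1 by 0.60 ± 0.12, while Keap1, its inhibitor, fell by 1.62 ± 0.16, Cat fell by 0.78 ± 0.20 and Mt1 fell by 0.83 ± 0.14. Nqo1 (0.26), Gclm (0.32), Txnrd1 (0.85), Sod2 (0.21), Me1 (-0.69), Txn1 (-0.23), Prdx1 (0.01) and Sqstm1 did not pass, although most are standard targets. Of 11 heat shock genes 4 rose and 2 fell. Hspa1a, the inducible HSP70, was at 10.98 and 10.82 on the WT Dox+ arrays, against 7.44 and 7.75 on the WT Dox- arrays, a rise of 3.31 ± 0.21 (adjusted p = 1.94e-05). Hspb8 and Dnajb1 rose by 1.55 ± 0.13 and 0.86 ± 0.13, the mitochondrial pair Hspd1 and Hspe1 fell (-0.90 ± 0.13 and -0.70 ± 0.17), and Hsp90aa1 (-0.38), Hspa8 (-0.14), Hsph1 and Bag3 (0.04) did not pass, although a second Hspa8 probe fell by 0.91. The medians of both lists changed sign over the scalings.

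Further lists showed no shared direction. Of 17 genes of glycolysis and hypoxia 6 rose and 3 fell, where the oxygen sensor Egln3 rose by 2.83 ± 0.15, Ndrg1 by 2.35 ± 0.14 and Pfkp by 1.04 ± 0.14, Adm, adrenomedullin, fell by 1.38 ± 0.21, and Gapdh (0.05), Ldha (0.04) and Aldoa (0.06) did not pass. Of 18 lysosomal genes 5 rose and 2 fell, led by the mannosidase Man2b1 (2.79 ± 0.13) and Gusb (1.29 ± 0.12). Clock genes gave 3 rose and 3 fell of 13, with Per2 rising by 0.83 ± 0.21, Nr1d1 by 0.56 ± 0.15 and Tef by 0.74 ± 0.12, while Dbp fell by 0.66 ± 0.14 and Clock fell by 0.76 ± 0.11. Rora, the gene that staggerer cells lack in part, was at 7.99 and 7.92 on the WT Dox+ arrays, against 7.72 and 8.08 on the WT Dox- arrays, with no difference that passed (0.06 ± 0.17). Of 22 Hox genes 5 rose and 7 fell, where Hoxd10 rose by 1.62 ± 0.14 and Hoxa2 and Hoxb2 fell (-1.72 ± 0.29 and -1.68 ± 0.26). The medians of the glycolysis, lysosome, clock and Hox lists all changed sign over the scalings.

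The largest rises were of genes with low or unmeasured levels in WT Dox- cells. Of the 15 largest among named genes, 9 were not above background without the drug. Cited4, a coactivator of CBP and p300, was at 11.90 and 12.08 in WT Dox+ cells, and was at least 60.4-fold higher (adjusted p = 1.79e-06). Matn4, a matrilin of the matrix, was at 11.92 and 12.00 in WT Dox+ cells, at least 59.3-fold higher. Kcnc4, a potassium channel, and Slc23a3 were at least 26.1-fold and 25.7-fold higher. Mreg, melanoregulin, Alox12, a lipoxygenase of arachidonic acid, Ankk1, Pou3f1, a POU factor, and Scin, which severs actin, were at least 33.9-fold, 21-fold, 17.3-fold, 16.3-fold and 14.4-fold higher. These 9 genes had in common that their probes lay within the range of the control rows on both WT Dox- arrays.

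Dgat2, which makes triglyceride, was measured in both groups, at 13.02 and 12.90 on the WT Dox+ arrays, against 7.90 and 7.74 on the WT Dox- arrays. It rose by 5.14 ± 0.13 (adjusted p = 1.09e-06). Nudt11, a phosphohydrolase, rose by 4.98 ± 0.13, and Cyp27a1 and Hey1, given above, belonged to the same 15. Amer2 and S100a7a, each above background on 1 of the 2 WT Dox- arrays, rose by 5.49 ± 0.22 and 5.33 ± 0.13.

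Of the 15 largest falls, 11 were of genes above background on all 4 arrays. Beside Ccn5, Ankrd1, Cxcl12, Cyp7b1, Top2a, Eln and Adamts5, they included Rgs4, a brake on G protein signalling, which was at 6.28 and 6.04 on the WT Dox+ arrays, against 9.31 and 9.28 on the WT Dox- arrays. Bcat1, the cytosolic branched-chain aminotransferase, was at 8.84 and 8.85 on the WT Dox+ arrays, against 11.59 and 11.70 on the WT Dox- arrays. Fignl1, an ATPase of recombination, fell by 2.96 ± 0.18, Nfib, a nuclear factor, fell by 2.86 ± 0.17, Angptl7 fell by 2.90 ± 0.19 and Pde1a, a phosphodiesterase, fell by 2.84 ± 0.35. Pde1a and Cyp7b1 were above background on 1 of the 2 WT Dox+ arrays. Hspa12b and Meox1, a mesodermal homeobox gene, were not above background in WT Dox+ cells and were at least 6.03-fold and 3.89-fold lower.

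Long genes fell more often than short ones. The span of a gene from start to end in RefSeq was known for 8621 of the 8625 named genes. The 8496 of these that code for protein and were above background on at least 1 of the 4 arrays were used. Of 1086 genes spanning under 5000 bases, 33.0% rose and 23.9% fell, with a median of 0.08. Of 311 genes spanning 200000 bases or more, 13.5% rose and 46.3% fell, with a median of -0.43. The medians declined through all 7 span classes. The correlation across genes was weak (Spearman's rho = -0.11), and genes share the same 4 arrays and are not independent replicates. Among genes in the highest of 3 classes of level the median was -0.01 in the shortest span class and -0.81 in the longest. In the lowest class of level it was 0.41 in the shortest and -0.19 in the longest. With no normalization between arrays the medians over all levels were -0.18 in the shortest and -0.70 in the longest.

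Examples among the long genes were chosen after their values were seen. Rbms3, an RNA-binding protein, was at 8.21 and 8.14 on the WT Dox+ arrays, against 10.87 and 10.85 on the WT Dox- arrays, and Ube2e2, a ubiquitin-conjugating enzyme, at 9.31 and 9.23 on the WT Dox+ arrays, against 11.22 and 11.30 on the WT Dox- arrays. Both were clearly lower after the drug. Zfpm2, Vti1a, Nfib and Mylk fell (-2.18 ± 0.12, -2.05 ± 0.12, -2.86 ± 0.17 and -2.71 ± 0.16). Other genes as long went up. Fgf13, on chromosome X, was at 12.02 and 12.18 on the WT Dox+ arrays, against 9.10 and 8.89 on the WT Dox- arrays, Btbd11 rose by 2.93 ± 0.11, Rap1gap2 by 1.97 ± 0.15 and Pde10a by 1.64 ± 0.14, and Otud7a and Reln were at least 4.53-fold and 2.13-fold higher.

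**Figure D5:**
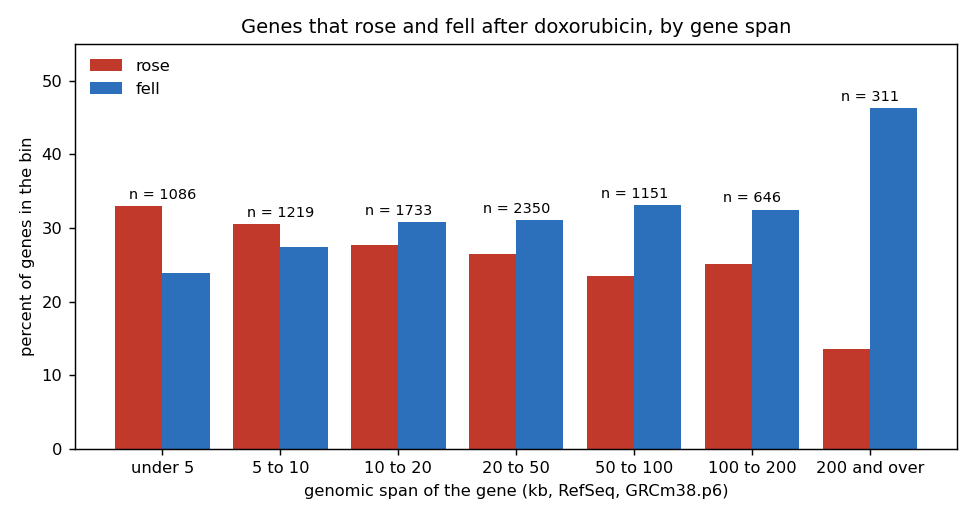
Percent of genes that rose (red) and fell (blue) after doxorubicin (vertical axis) in 7 classes of genomic span (horizontal axis, kilobases), with the number of genes in each class above its bars. The share that fell reaches 46.3% and the share that rose 13.5% in the class with the longest genes.

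Other probes of a gene did not always give the call of its brightest one. Of the genes named, 145 had another probe above background on all 4 arrays, and 35 of these had a different call there, with p adjusted over all probes. Bok had opposite calls. A further 20 genes passed at the brightest probe and not at another, namely Apaf1, Ccnd3, Ccng1, Clspn, Dcn, Dcp1a, Fzr1, H3f3a, Ifit3, Irf9, Kif4, Klf4, Ltbp4, Mre11a, Per2, Pfkp, Rad9a, Tgfbr2, Tpm2 and Tyms. Among them the other probe lay on the opposite side of 0 for H3f3a (-0.46), Ifit3 (-0.10) and Ltbp4 (-0.12). The remaining 14 passed at another probe and not at the brightest. Of these Casp6, Fbln1, Fbln2, Irf1, Lgals9, Sesn2 and Wwtr1 rose there, and Acta2, Blm, Hspa8, Me1, Nsdhl, Pan2 and Xrcc6 fell.

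The same drug in staggerer fibroblasts gave a response of another size or direction at the genes chosen for comparison, except Myc. The difference between the effects (WT minus Sg) was tested in the same model over all genes, of which 5525 passed (59.2%). The staggerer arrays after doxorubicin had 9411 ± 233 probes above background, against 10964 ± 31.1 in untreated staggerer cells (SD, n = 2), and its part in these differences was not tested. The labels give no number of cell isolates, so genotype and isolate cannot be told apart. Mdm2, Cdkn1a and Fas, which rose in wild type cells, fell in staggerer cells (-1.59, -1.80 and -0.64), and the effects differed by 2.56 ± 0.20, 2.49 ± 0.19 and 2.61 ± 0.20. Pmaip1 rose in both, by 2.94 in wild type and 1.57 in staggerer cells, a difference of 1.37 ± 0.20 (adjusted p = 0.00106). Bbc3, which did not pass in wild type cells, fell by 2.53 in staggerer cells. Top2a and Eln fell further in wild type cells, with differences of -2.17 ± 0.21 and -1.37 ± 0.20. Hmgcs1 fell further in staggerer cells (-2.80), and Usp18 rose further in wild type cells, with differences of 1.46 ± 0.16 and 1.26 ± 0.17. Myc gave no difference that passed (0.54 ± 0.47, adjusted p = 0.354).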

How the data were processed

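The arrays were 1-colour Illumina bead arrays labelled with Cy3, per the labels' protocols. The values deposited by the authors are linear intensity readings of 25697 probes with 1124 control rows, and a second table of theirs holds log2 values, which equal quantile-normalized log2 intensity with no background correction (largest difference 5.1e-09). The scanner software is not given in the sources used here. From the intensities, background was corrected with limma 3.58.1 in R 4.3.3 (nec, offset 16, with 1114 control rows as negative controls after 10 bright ones were left out), then quantile normalization and log2 were applied. A probe was above background where its detection p, the fraction of control rows reaching its signal, was under 0.01, and it was tested where this held on at least 2 of 8 arrays. Each gene took its brightest probe. Of all probes, 23978 carried 1 gene symbol in the platform annotation, 0 several and 1719 none used here, while 23962 were matched to current RefSeq names (GRCm38.p6) through their Entrez identifier. Promoter sequences are from RefSeq with the same build.

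The linear model (lmFit, eBayes) took all 8 arrays and 1 mean for each group, with 4 residual and 3.44 prior degrees of freedom, and the adjusted p-values in the text are limma's, two-sided, by Benjamini-Hochberg over 9340 genes. The fit was tested on simulated data. The number of arrays limits the precision. Replicate numbers did not pair the wild type arrays, since deviations from the group means correlated at -0.02 between groups.

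The experiment, the 56 gene lists (42 written by hand, 14 matched by name pattern) and the tests were chosen with earlier results of these data known, so the lists are described by counts and medians with no test of their own. The genes named were the 15 largest rises and 15 largest falls among named genes that passed, up to 6 members of each list with the smallest p in each direction with those that did not pass or went against the majority, and a fixed set (Cdkn1a, Mdm2, Pmaip1, Fas, Ccng1, Bbc3, Top2a, Ccnb1, Hmgcs1, Usp18, Eln and Myc), of which Ccnb1 had no tested probe. In the longest lists not every member that did not pass is named. Promoter letters were counted without a test. Alternatives were another background correction, offset, normalization, filter, probe rule or variance model, a fold threshold, a replicate block and leaving out each array.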

Additional observations from a re-analysis of the deposited data

Results flagged for a closer look

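Of the 11 genes compared between genotypes, 10 had a doxorubicin effect that differed between wild type and staggerer cells by a test of the difference itself (limma, adjusted over all genes, n = 2 arrays in each of 4 groups). Values are the wild type effect minus the staggerer effect on the log2 scale. Among the p53 targets the differences were 2.56 at Mdm2, 2.49 at Cdkn1a, 2.61 at Fas, 1.37 at Pmaip1, 0.93 at Ccng1 and 2.55 at Bbc3. Usp18 differed by 1.26 and Hmgcs1 by 1.46. Top2a differed by -2.17 and Eln by -1.37. As 59.2% of all genes passed this test, these values are not particular to the genes named, and the fitted differences carry no bound for levels near background. Beside them, the staggerer arrays after doxorubicin had 9411 ± 233 probes above background, against 11456.5 ± 163 on the WT Dox+ arrays.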

How the results depend on the processing

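The counts over all genes stayed within 1.5 times of those reported under every alternative but 1. When limma tested for a fold of at least 1.5, 2162 genes changed, 1167 up and 995 down, and 2873 differed in effect between genotypes. Leaving out 1 wild type array in turn gave 4121 to 4253 changed genes, 1963 to 2038 that rose and 2158 to 2256 that fell, with the remaining array of the group taken to vary like the other groups. The replicate block gave 5178 changed genes and is not read as a paired result, since no pairing of the arrays was seen. The slide as a block was not run, because the files used here give no slide. Without normalization between arrays 30.5% of the called genes rose, with median centring 36.9%, and otherwise 43.9% to 54%. Of the 624 genes named, 448 were called. Calls lost numbered 191 with the fold of at least 1.5, 45 with no normalization between arrays, 21 with median centring and 0 to 34 under the other alternatives that kept all arrays. The 0 came from stricter detection filters, which kept 476 or 619 of the 624 genes, and a gene left out by the filter was not counted as lost. Leaving out 1 array lost 56 to 65 of them, and 93 lost their call without at least 1 of the 4 arrays, where fewer samples enter the fit. Cdkn1a and Mdm2 lost theirs at a fold of at least 1.5 (adjusted p = 0.561 and 0.0555). One gene turned round, Acta2, at -0.354 with the mean of its probes, since 2 of its other probes read lower. Of the medians of lists with 5 or more tested genes over all alternatives, 552 moved by less than the SD of that median between the WT Dox+ arrays and 280 by more. The fold threshold, the other variance model and the replicate block left the fitted differences as they were, so no median could move under them. Those medians count among the 552, which therefore overstates how stable the medians were. Levels near background limit the fold changes of 479 genes that rose and 266 that fell, since these were not above background in 1 group.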
